A study of Mus musculus with 12 samples.

Results

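The genes described here encode 9 liver enzymes that break down histidine (Hal, Uroc1, Amdhd1, and Ftcd), glycine (Gldc and Amt), serine (Sds and Sdsl), and tryptophan (Tdo2). They are 9 of the 24421 gene symbols counted in each library, all 9 were found by symbol, and all 9 passed the expression filter in every comparison. The set was chosen by measured values of these libraries, because several of its members differed between tumors with a Ctnnb1 mutation and other tumors. Their levels in those tumor classes are therefore given as a description, without a test.

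Poly(A) RNA of 6 liver tumors and of non-tumoral liver from each of these 6 mice had been sequenced and counted per gene. The liver set against T-HCC662 has a label number that the study does not list, and it was assigned to that mouse by elimination. In p21+/Tert mice (those with T-HCA992, T-HCC941, T-HCC663, and T-HCC662) an allele of Cdkn1a, the gene of the cell cycle inhibitor p21, drives expression of telomerase reverse transcriptase (Tert), and in p21+/TertCi mice (those with TCi-HCC981 and TCi-HCA984) it drives a catalytically inactive Tert. All were on a standard diet, the labels give no age but the study's methods describe mice sampled at an advanced age, and wild-type livers were not analysed here, so that every liver and tumor carries 1 of these alleles. By the mutations that the study lists, T-HCC662 and T-HCC663 carry Ctnnb1 (β-catenin) mutations, T-HCC941 an Egfr and TCi-HCC981 an Hras mutation, and T-HCA992 and TCi-HCA984 neither of these. In the study's tumor names HCC stands for hepatocellular carcinoma and HCA for adenoma, but its table of diagnoses lists an adenoma for the mouse with T-HCC663. Both Ctnnb1 tumors come from p21+/Tert mice, so that the Ctnnb1 class and the genotype cannot be told apart in it.

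The liver clears surplus amino acids through enzymes that are largely restricted to hepatocytes. Many of them are more abundant around the portal vein, where blood enters the lobule, whereas Wnt and β-catenin signaling maintains another program, with glutamine synthesis, around the central vein. Histidine is deaminated to urocanate by histidine ammonia lyase (Hal). Urocanase (Uroc1), imidazolonepropionase (Amdhd1), and formiminotransferase cyclodeaminase (Ftcd) then convert urocanate to glutamate, and Ftcd passes a carbon unit to tetrahydrofolate. The mitochondrial glycine cleavage system, in which Gldc is the decarboxylase and Amt the aminomethyltransferase, also feeds folate. Serine dehydratase (Sds) turns serine into pyruvate, Sdsl is the product of a related gene, and tryptophan 2,3-dioxygenase (Tdo2) starts the kynurenine pathway.

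RefSeq promoter windows on GRCm38.p6, from 250 bases before to 50 bases after the start, were held for 7 of the 9 genes (all but Sds and Sdsl). Motifs of factors tied to Wnt signaling or to hepatocyte expression were searched in them on both strands, and 2 windows held a match. They are shown 5′ to 3′ because they are the windows with a match, which stands in capitals. The window of Hal (chr10:93488518-93488817, plus strand) held CTTTGAT, a core bound by TCF and LEF factors, 199 to 193 bases before the start. The window of Ftcd (chr10:76575398-76575697, plus strand) held GTTAAT, an HNF1 half-site, 56 to 51 bases before the start.
Hal: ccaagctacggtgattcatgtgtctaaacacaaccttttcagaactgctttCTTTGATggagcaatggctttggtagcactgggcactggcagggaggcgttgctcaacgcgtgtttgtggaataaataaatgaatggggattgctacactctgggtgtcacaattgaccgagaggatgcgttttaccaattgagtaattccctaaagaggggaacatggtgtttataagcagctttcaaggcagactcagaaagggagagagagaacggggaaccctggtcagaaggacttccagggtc
Ftcd: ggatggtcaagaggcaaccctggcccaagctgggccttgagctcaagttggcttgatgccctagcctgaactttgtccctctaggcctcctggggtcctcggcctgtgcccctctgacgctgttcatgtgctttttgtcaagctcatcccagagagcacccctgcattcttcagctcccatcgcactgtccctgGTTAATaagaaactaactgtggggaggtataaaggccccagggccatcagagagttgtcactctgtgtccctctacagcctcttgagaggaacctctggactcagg
Of all 32851 promoter windows in the table, 3.73% held CTTTGAT and 7.10% GTTAAT. None of the 7 windows held CAAAGTCCA (an HNF4A core, 0.475% of all windows), AGAACA (a glucocorticoid receptor half-site, 19.0%), TGACGTCA (a CREB core, 1.79%), or TTGCGCAA (a C/EBP site, 0.183%). None of these motifs overlapped another in the Hal and Ftcd windows, and a match is a description of letters only.

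Between 14571716 and 26170661 reads were counted on genes per library. Levels are given in CPM, reads of a gene per 1000000 after scaling libraries by TMM. Errors are SD over mice for levels and SE, the standard error, for log2 fold changes. Outside the Ctnnb1 tumors no member had fewer than 223 reads in a library, and the lowest count, 6 reads, was that of Sdsl in T-HCC662. For values under 100 reads an exact Poisson interval (95%, counting error only) is given. A gene was called where edgeR's quasi-likelihood F test gave a Benjamini-Hochberg adjusted p under 0.05 over all genes tested. The liver of the mouse with TCi-HCA984 had the lowest Hal, Amdhd1, Ftcd, and Sds level of the 6 livers. The sequencing run of each library is not given in the labels, and its part in the results was not tested.

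In the non-tumoral livers the members spanned more than an order of magnitude per length of transcript. On the scale of CPM per kilobase of merged exons, the mean level was 355 ± 97.4 (SD, n = 6) for Ftcd, 318 ± 155 for Sds, 244 ± 81.8 for Tdo2, and 155 ± 45.2 for Uroc1. Lower levels were measured for Amdhd1 (107 ± 33.6), Hal (64.4 ± 20.9), Gldc (34.2 ± 15.6), Amt (21.7 ± 10.6), and Sdsl (16.9 ± 8.24). Of neighbours in this order, Uroc1 was above Amdhd1 and Amdhd1 above Hal in 6 of 6 livers. Ftcd was above Sds, and Amt above Sdsl, in only 3 of 6, so that these pairs did not differ beyond their spread. Serine dehydratase transcripts were thus mostly those of Sds, at a level that the related Sdsl did not approach.

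All 4 histidine genes were low in the Ctnnb1 tumors and remained within or near the range of the livers in the other tumors. In whole tissue, fewer cells that express a gene and less of its RNA per cell cannot be told apart. Hal, the entry enzyme, had 169, 373, and 462 CPM as its lowest, median, and highest level in the livers. It had 1.71 CPM in T-HCC662 (38 reads, interval 1.21 to 2.35) and 1.23 CPM in T-HCC663 (28 reads, interval 0.815 to 1.77). In the other tumors it was 166 in T-HCC941, 421 in TCi-HCC981, 100.5 in T-HCA992, and 264 in TCi-HCA984. The Ctnnb1 tumors lay far below every liver, with a mean 233-fold under that of the livers, whereas only T-HCC941 and T-HCA992 of the others were below the lowest liver.

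Amdhd1, the imidazolonepropionase, ranged from 126 to 342 CPM in the livers (median 264). Its level was 29.0 in T-HCC662 and 2.50 in T-HCC663 (57 reads, interval 1.89 to 3.24), so that the pair differed 11.6-fold between themselves. The 4 other tumors had 242 (T-HCC941), 188 (TCi-HCC981), 144 (T-HCA992), and 154 CPM (TCi-HCA984), all within the range of the livers. Uroc1, the urocanase, ranged from 336 to 693 CPM in the livers (median 587). It was 103 in T-HCC662 and 90.4 in T-HCC663, against 458 in T-HCC941, 334 in TCi-HCC981, 424 in T-HCA992, and 448 in TCi-HCA984. Both enzymes were thus lower in the Ctnnb1 tumors than in any other library, Uroc1 5.57-fold and Amdhd1 16.5-fold under the mean of the livers.

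Ftcd, which closes the pathway, was the least reduced of the 4. Its livers ranged from 490 to 960.98 CPM (median 625). T-HCC662 had 125 and T-HCC663 259, and the other tumors had 569 (T-HCC941), 386 (TCi-HCC981), 391 (T-HCA992), and 392 CPM (TCi-HCA984). No tumor but T-HCC941 reached the lowest liver. The fold under the livers in Ctnnb1 tumors thus went from 233 for Hal, the first enzyme, over 5.57 for Uroc1 and 16.5 for Amdhd1 to 3.57 for Ftcd, the last.

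**Figure D1:**
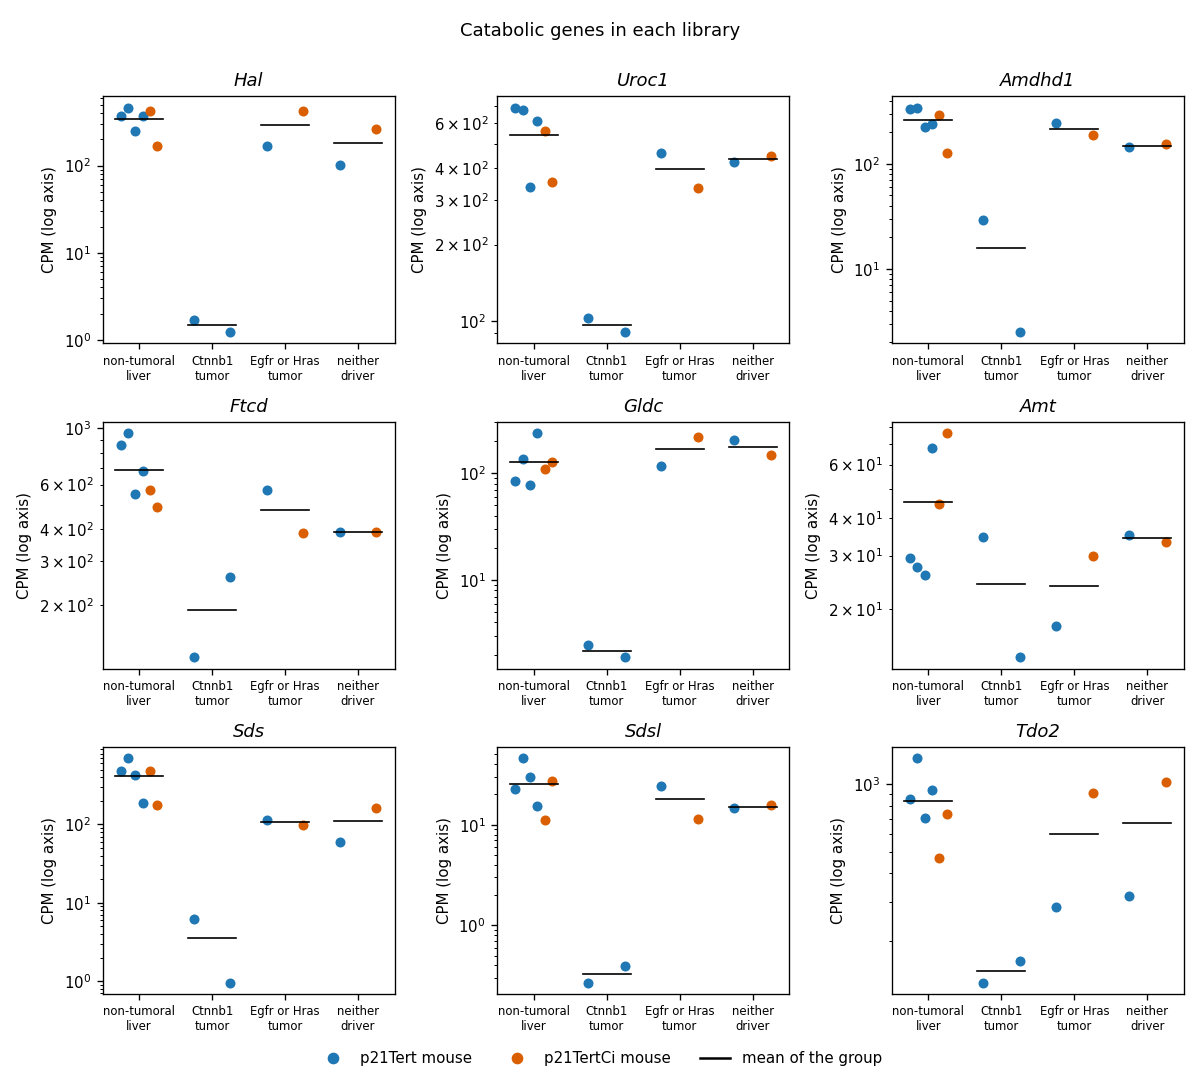
Level of each gene in each of the 12 libraries, in CPM on a log axis that differs between panels, by tissue and driver class, with p21+/Tert mice in blue, p21+/TertCi mice in orange, and the mean of a group as a line. The Ctnnb1 tumors are the lowest libraries for 8 of the 9 genes and overlap the others for Amt, in a contrast on which the genes were chosen. The share of all genes without overlap was not computed. By the test between Ctnnb1 and other tumors, a different measure, 11.8% of all genes tested were called.

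The genes of the glycine cleavage system differed in the size of their change. Gldc, the decarboxylase, ranged from 76.7 to 239 CPM in the livers (median 118). It was 2.48 CPM in T-HCC662 (55 reads, interval 1.87 to 3.23) and 1.88 in T-HCC663 (43 reads, interval 1.36 to 2.54), a mean 59.0-fold under the livers. The other tumors had 116 (T-HCC941), 218 (TCi-HCC981), 204 (T-HCA992), and 149 CPM (TCi-HCA984), and 3 of these 4 were above the liver of the same mouse. Gldc was the only member whose mean in the other tumors, 172 CPM, exceeded that of the livers, 129 CPM, though their ranges overlapped.

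Amt, the aminomethyltransferase of the same complex, ranged from 25.9 to 76.4 CPM in the livers (median 36.9). T-HCC662 had 34.7 and T-HCC663 13.8, against 17.6 in T-HCC941, 29.8 in TCi-HCC981, 35.1 in T-HCA992, and 33.3 in TCi-HCA984. The tumor classes overlapped, and 5 of 6 tumors had less Amt than the liver of their own mouse. The partner Gcsh, the hydrogen carrier protein, had a mean of 102 CPM in Ctnnb1 tumors against 96.4 ± 9.34 in livers (log2 fold change 0.05, SE 0.19, adjusted p = 0.90). Dld, the dihydrolipoamide dehydrogenase that several complexes share, had 110 against 110 ± 11.3 (log2 fold change -0.03, SE 0.18, adjusted p = 0.95). Of these 4 genes of the complex, Gldc alone was separated from the livers by more than an order of magnitude.

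Serine dehydratase (Sds) was lower in every tumor, though in TCi-HCA984 it was at 90.9% of the liver of the same mouse. Sds ranged from 176 to 701 CPM in the livers (median 455). It had 6.22 CPM in T-HCC662 and 0.964 in T-HCC663 (22 reads, interval 0.604 to 1.46), a mean 114-fold under the livers. The other tumors had 114 (T-HCC941), 99.2 (TCi-HCC981), 59.2 (T-HCA992), and 160 CPM (TCi-HCA984). Sds was the only member for which all 6 tumors lay below all 6 livers. The share of all genes without such overlap was not computed. By the test, a different measure, 10.7% of all genes tested were called in this comparison. Exons of Sds overlap those of Plbd2 and Gm15690 on the other strand, and the strand setting of the counting is not given, so that its counts are uncertain to that extent. Plbd2 itself had 39.4 to 45.1 CPM in the Ctnnb1 tumors and 76.6 to 132 CPM in the other 10 libraries.

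Sdsl ranged from 11.2 to 46.0 CPM in the livers (median 24.8). Only 6 reads in T-HCC662 (0.270 CPM, interval 0.0992 to 0.588) and 9 reads in T-HCC663 (0.394 CPM, interval 0.180 to 0.749) were counted on it. The other tumors had 24.2 (T-HCC941), 11.5 (TCi-HCC981), 14.7 (T-HCA992), and 15.7 CPM (TCi-HCA984), all within the range of the livers. Sdsl thus differed from Sds in the other tumors, where Sds was below every liver.

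Tryptophan dioxygenase was lower in the tumors of p21+/Tert mice, with or without a Ctnnb1 mutation, and not in those of p21+/TertCi mice. Tdo2 ranged from 470 to 1306 CPM in the livers (median 797). The 4 p21+/Tert tumors had 131 (T-HCC662), 163 (T-HCC663), 283 (T-HCC941), and 317 CPM (T-HCA992), all below the lowest liver. TCi-HCC981 and TCi-HCA984, from p21+/TertCi mice, had 916 and 1020 CPM. Relative to the liver of the same mouse, the log2 ratio was -2.71, -3.0, -1.31, and -1.58 in the p21+/Tert tumors in that order, and 0.96 and 0.46 in the p21+/TertCi tumors. The genotypes did not overlap in this ratio, with only 4 and 2 tumors, and the share of all genes without such overlap was not computed.

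**Figure D2:**
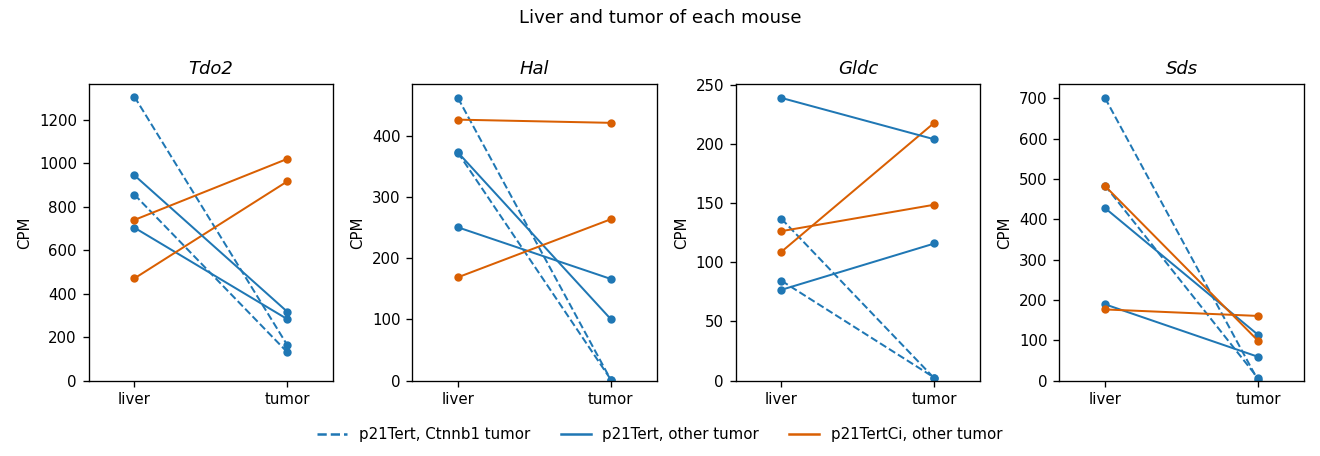
Level in CPM of 4 members in the liver and in the tumor of each mouse, joined by a line, with p21+/Tert mice in blue (dashed where the tumor carries a Ctnnb1 mutation) and p21+/TertCi mice in orange. Tdo2 is lower in the tumor of the 4 p21+/Tert mice and higher in that of the 2 p21+/TertCi mice, and Gldc approaches 0 only along the dashed lines. Sds is lower in each tumor, by little in TCi-HCA984.

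Against the liver of the same mouse, 8 of the 9 members were lower in both Ctnnb1 tumors. None of these 8 was higher in all 4 other tumors. Gldc was higher in 3 of them, Uroc1, Amdhd1, and Tdo2 in 2, Hal, Ftcd, and Sdsl in 1, and Sds in 0. Of the 36 ratios of the other tumors (9 genes in 4 tumors), 12 were above 0 on the log2 scale. T-HCA992 was lower for all 9 members, with a median log2 ratio of -0.80, whereas TCi-HCA984 was lower for 4 of 9, with a median of 0.23. The shares of all genes with these directions were not computed, and the members were chosen on values of these tumors. TCi-HCA984 is set against the liver with the lowest Hal, Amdhd1, Ftcd, and Sds. T-HCC663 had a median of -6.18 and T-HCC662 of -3.53, the latter against the liver assigned to it by elimination.

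**Figure D3:**
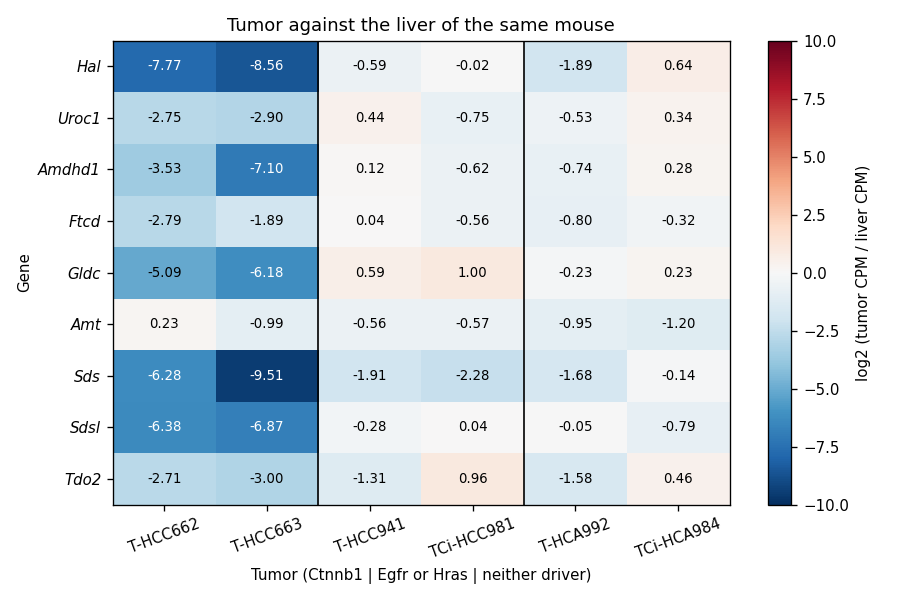
Heat map of the log2 ratio of tumor CPM to liver CPM in the same mouse for each gene (rows) and tumor (columns, by driver class), with the ratio written in each cell, blue for lower and red for higher in the tumor. The Ctnnb1 columns hold ratios from -9.51 to 0.23, and the other 4 columns hold ratios from -2.28 to 1.00.

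In the fit across all genes, between Ctnnb1 and other tumors, where 11.8% of 15182 genes were called and the members had been chosen, the log2 fold change was -7.34 for Hal (SE 0.75), -6.30 for Gldc (SE 0.58), -5.61 for Sdsl (SE 0.68), and -4.92 for Sds (SE 0.87). Smaller values were obtained for Amdhd1 (-3.53), Tdo2 (-2.12), Uroc1 (-2.11), Ftcd (-1.19), and Amt (-0.27). Against the livers, where 7.78% of genes were called, the median over the 9 members was -4.06 in the Ctnnb1 tumors, beside -0.03 over all genes tested. In the other tumors it was -0.54 beside 0.00, and there 22.2% of all genes were called. The Ctnnb1 tumors, the other tumors, and all tumors are compared with the same livers, so these values are not independent of each other.

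Comparing all 6 tumors with the 6 livers asks what tumors share whatever their driver. The 6 tumors include the Ctnnb1 tumors, on whose values the members were chosen, so the members' p-values are not independent of that choice. The members' log2 fold changes were all below 0, from -2.48 for Sds (SE 0.85, adjusted p = 0.080) to -0.16 for Gldc (SE 0.85, adjusted p = 0.93). Of all genes tested, 49.1% had a log2 fold change below 0. None of the 9 passed the test, where 10.7% of 13822 genes did, 3 had an unadjusted p under 0.05, and DESeq2 called 2, Ftcd and Sds, among 2407 genes. With the mouse as a block, 2202 of 13822 genes were called, Amt among them (log2 fold change -0.69, SE 0.19, adjusted p = 0.043, range over the alternatives 0.043 to 0.34). Leaving out T-HCC663 alone, Sds was called (-2.22, adjusted p = 0.045). Without both Ctnnb1 tumors, an alternative chosen after seeing the data, 21.9% of genes were called, and of the members Sds alone fell (-1.92, SE 0.43, adjusted p = 0.0095). The adjusted p of the other 8 members then lay between 0.076 and 0.52. The tumors left are the other side of the contrast on which the members were chosen. The members' p-values without the Ctnnb1 tumors are thus not independent of that choice either.

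Within the p21+/Tert mice, 4 tumors were compared with 4 livers. The Ctnnb1 tumors T-HCC662 and T-HCC663, on whose values the members were chosen, are among these tumors. The p-values of the members are thus not independent of that choice. Tdo2 was the single member called, where 6.49% of 15182 genes were, and it fell by 2.11 on the log2 scale (SE 0.35, adjusted p = 0.0080). Under 17 alternatives its log2 fold change stayed between -2.33 and -1.67, and its adjusted p between 3.18e-08 and 0.032. Sds (-3.35, SE 1.09, adjusted p = 0.094) and Ftcd (-1.21, SE 0.40, adjusted p = 0.098) did not pass, and both were among the 2109 genes that DESeq2 called. With T-HCC941 and T-HCA992 alone against these livers, 14% of genes were called. Tdo2 fell by 1.67 (SE 0.34, adjusted p = 0.014) and Sds fell by 2.38 (SE 0.62, adjusted p = 0.035), whereas the value for Hal was -1.45 (SE 0.45, adjusted p = 0.059). T-HCC941 and T-HCA992 were among the other tumors of the contrast on which the members were chosen. The members' p-values in this fit are thus not independent of that choice either.

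Within the p21+/TertCi mice, 2 tumors were compared with 2 livers, and no gene was called (0% of 15182, with 1618 at an unadjusted p under 0.05 and 362 called by DESeq2). None of the members had an unadjusted p under 0.05. The log2 fold change of Tdo2 was 0.66 (SE 0.48, adjusted p = 0.65), that of Gldc 0.62 (SE 1.54, adjusted p = 0.92), and that of Amt -0.96 (SE 0.56, adjusted p = 0.58). The SE rests on a spread shared by all libraries, the Ctnnb1 tumors among them. Fitted without those tumors, Tdo2 had 0.68 (SE 0.36, adjusted p = 0.40), Gldc 0.64 (SE 0.53, adjusted p = 0.61), and Amt -0.93 (SE 0.52, adjusted p = 0.42).

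The difference between the genotypes in the tumor effect was tested as an interaction, which called no gene by edgeR (0% of 15182, with 556 at an unadjusted p under 0.05 and 6 called by DESeq2). Tdo2 had the only unadjusted p under 0.05 among the members. Its tumor effect was 2.77 higher on the log2 scale in p21+/TertCi mice (SE 0.60, unadjusted p = 0.00070, adjusted p = 1.00), and DESeq2 called it (adjusted p = 0.0063). Without the Ctnnb1 tumors, which are p21+/Tert tumors only, the difference was 2.35 (SE 0.49, unadjusted p = 0.00090, adjusted p = 1.00) and again 0% of genes were called. The Tdo2 difference was thus of similar size without these tumors, and it did not pass the correction in edgeR. Each genotype then holds 1 adenoma and 1 carcinoma. With 2 tumors a genotype, differences between single animals and between genotypes are hard to separate.

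Comparing these 4 tumors directly, p21+/TertCi against p21+/Tert, called no gene (0% of 14980, with 1250 at an unadjusted p under 0.05). The fitted level of Tdo2 was 3.23-fold higher in the p21+/TertCi tumors (log2 fold change 1.69, SE 0.37, unadjusted p = 0.0012, adjusted p = 0.35). Hal was 2.57-fold higher (1.36, SE 0.49, unadjusted p = 0.020, adjusted p = 0.52).

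Between the Egfr or Hras tumors and the tumors with neither driver, no gene was called (0% of 15182, with 1331 at an unadjusted p under 0.05 and 105 called by DESeq2). The former are carcinomas and the latter adenomas, so that driver and tumor type cannot be told apart in this comparison. The members' log2 fold changes lay between -0.56 for Amt (SE 0.58) and 0.66 for Hal (SE 0.57), with adjusted p from 0.73 to 0.99. Between the livers of p21+/TertCi and p21+/Tert mice, no gene was called either (0% of 15182, with 756 at an unadjusted p under 0.05 and 42 called by DESeq2). The members lay there between -0.63 for Tdo2 (SE 0.42) and 0.70 for Amt (SE 0.47), with adjusted p from 0.93 to 1.00. The SE of Hal between the livers was 1.38 in this fit and 0.42 in the fit without the Ctnnb1 tumors, where its adjusted p was 0.89.

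Some members are neighbours in the genome. On GRCm38, Hal (chr10:93488768-93519304, plus strand) lies 4033 bases from Amdhd1 (chr10:93523338-93540033, minus strand), and Sdsl (chr5:120458186-120472810, minus strand) lies 3715 bases from Sds (chr5:120476526-120483932, plus strand). Ftcd is at chr10:76575648-76590338 (plus), Uroc1 at chr6:90333284-90364551 (plus), Gldc at chr19:30098447-30175429 (minus), Amt at chr9:108296853-108302302 (plus), and Tdo2 at chr3:81957090-81976202 (minus). The expressed genes that flank the first pair did not pass the test between Ctnnb1 and other tumors. Lta4h, 3892 bases from Hal, had a value of -0.46 on the log2 scale (adjusted p = 0.34), and Ccdc38, 598 bases from Amdhd1, of -0.060 (adjusted p = 0.96). Beside the second pair, Plbd2, which overlaps Sds, fell by 1.10 (adjusted p = 0.017), and Rbm19, 259204 bases from Sdsl, had -0.01 (adjusted p = 0.98). Uhrf2, 4724 bases from Gldc, had -0.45 (adjusted p = 0.11), and Ctso, 364 bases from Tdo2, had -0.24 (adjusted p = 0.57).

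As a view of whole chromosomes, the median log2 ratio of tumor to own liver was taken over the genes of each chromosome that holds a member. Its distance from the median of all genes lay between -0.27 (chromosome 9, with Amt, in T-HCC941) and 0.19 (chromosome 5, with Sds and Sdsl, in T-HCC941). In the Ctnnb1 tumors the largest was -0.16, for chromosome 19, with Gldc, in T-HCC662. These shifts were small beside those of Hal, Gldc, Sds, and Sdsl in the same tumors.

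The other genes of these and related pathways are given by list. Of 67 tested genes in 5 lists, 4 were lower and 8 higher in Ctnnb1 than in other tumors (11.8% of all genes called), and their median log2 fold change was 0.27, beside -3.53 for the members and -0.04 for all genes. With the mouse as a block, 2 were called, and without T-HCC662, 4. Against the livers, 37 of the 67 were lower and 6 higher in the other tumors, and 10 were lower and 2 higher in the Ctnnb1 tumors. Of all genes tested, 10.2% were called lower in the 4 other tumors and 2.98% in the 2 Ctnnb1 tumors, so these counts are not on an equal footing. The lists were chosen with earlier results of these data known.

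In the folate list, which holds the carbon acceptors of Ftcd and of glycine cleavage, none of 12 genes was called between the tumor classes. Against livers, all tumors together had 3 genes higher and 2 lower. Mthfd1l, a mitochondrial formate producer, rose by 2.44 on the log2 scale (SE 0.42, adjusted p = 0.0040) and Aldh1l1, the cytosolic formyltetrahydrofolate dehydrogenase, fell by 1.48 (SE 0.28, adjusted p = 0.0059). Shmt1 and Shmt2, which interconvert serine and glycine, had -0.18 (adjusted p = 0.80) and 0.74 (adjusted p = 0.11) between Ctnnb1 and other tumors.

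In the glycine and serine list, 1 of 17 tested genes was higher and 1 lower in Ctnnb1 than in other tumors. Agxt2, a mitochondrial glyoxylate aminotransferase, was higher by 1.22 (adjusted p = 0.010). Psph, the last enzyme of serine synthesis, fell by 1.66 (adjusted p = 0.016), with 22.2, 15.5, 16.5, and 10.2 CPM in T-HCC941, TCi-HCC981, T-HCA992, and TCi-HCA984 against 6.89 and 3.29 in T-HCC662 and T-HCC663. All tumors together had 2 genes higher and 4 lower than livers. Psat1, a transaminase of serine synthesis, rose by 4.07 (SE 0.99, adjusted p = 0.021) and Sardh, the sarcosine dehydrogenase that forms glycine, fell by 1.43 (SE 0.26, adjusted p = 0.0045). Dao had no read in any library.

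In the kynurenine and NAD list, which holds enzymes downstream of Tdo2 and also Ido1 and Ido2, 3 of 10 tested genes were lower in Ctnnb1 than in other tumors and none was higher. These were Ido2, Ccbl1, and Kynu. Ccbl1, a kynurenine aminotransferase, fell by 2.40 (SE 0.28, adjusted p = 0.00049). Kynu, the kynureninase, fell by 1.11 (adjusted p = 0.033), whereas Kmo, the monooxygenase, had -0.63 (adjusted p = 0.16), Haao, the hydroxyanthranilate dioxygenase, 0.80 (adjusted p = 0.15), and Afmid, the formamidase, 0.43 (adjusted p = 0.69). All tumors together had 4 genes lower than livers, led by Aadat, another aminotransferase, which fell by 1.66 (SE 0.30, adjusted p = 0.0045). For this list the median was -1.06 in Ctnnb1 tumors and -0.81 in other tumors against livers.

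Genes for phenylalanine, tyrosine, and other amino acids are given with the same unequal shares of calls. Of 8 phenylalanine and tyrosine genes, 7 were lower than in livers in the other tumors and none in the Ctnnb1 tumors, and 3 were higher in Ctnnb1 than in other tumors. Hgd, the homogentisate dioxygenase, was higher by 2.09 (SE 0.43, adjusted p = 0.012). Tat, the tyrosine aminotransferase, was lower in all tumors together (log2 fold change -1.75, SE 0.41, adjusted p = 0.016). Of 20 genes for other amino acids, 16 were lower than in livers in the other tumors and 4 in the Ctnnb1 tumors, and 4 were higher in Ctnnb1 than in other tumors. Prodh, the proline dehydrogenase, was higher by 3.92 (SE 0.58, adjusted p = 0.0021), and Prodh2, which breaks down hydroxyproline, fell in all tumors together (-1.23, SE 0.18, adjusted p = 0.0016).

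**Figure D4:**
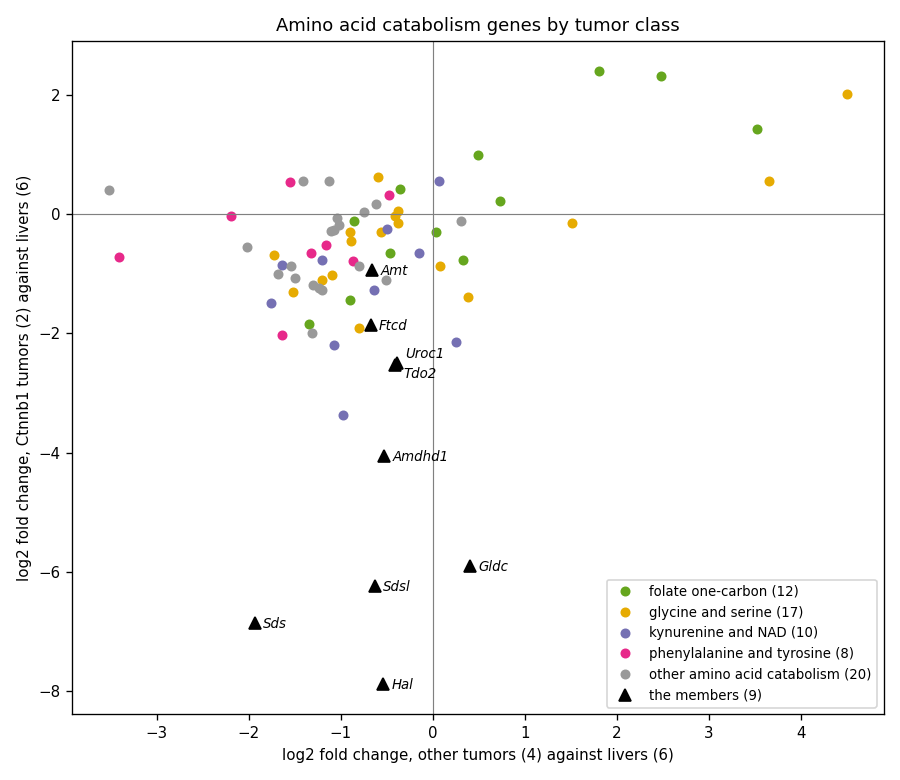
Log2 fold change against the 6 livers in the 4 other tumors (x axis) and in the 2 Ctnnb1 tumors (y axis) for the members (black triangles, named) and for the genes of 5 lists (circles, number of genes in brackets), where both axes share the livers. Hal, Sds, Sdsl, and Gldc lie under -5 on the y axis and between -2 and 1 on the x axis, whereas no gene of the 5 lists lies under -3.37 (Ido2) on the y axis.

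The members were compared with markers of the lobule, since several of them are known as periportal genes. Of 12 periportal markers, 6 were lower and none higher in Ctnnb1 than in other tumors, with a median of -2.67. Sfxn1, a mitochondrial serine carrier, fell by 5.56 (SE 0.55, adjusted p = 0.00018), and Pck1, a gluconeogenic enzyme, had -1.48 (adjusted p = 0.28). Ass1, a urea cycle enzyme, fell in all tumors together (-2.82, SE 0.41, adjusted p = 0.0016). Of 13 pericentral markers, 11 were higher and none lower, with a median of 3.83, and Rhbg, an ammonium transporter, rose by 6.60 (SE 0.29, adjusted p = 2.17e-07). Against the livers, 6 of the 13 were higher in the Ctnnb1 tumors (median 1.86, 4.80% of all genes called higher). In the other tumors 11 were lower (median -2.11, 10.2% of all genes called lower). Of the periportal markers, 8 were lower in the Ctnnb1 tumors (median -3.65), and 4 were lower and 2 higher in the other tumors (median -0.63). Of 15 genes of the glucagon and glucocorticoid response, 1 was called between the classes, Gcgr, the glucagon receptor (0.92, adjusted p = 0.047), and the median was -0.16.

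Markers of cell types moved with the tumor classes as follows, and their part in the members' levels was not tested. The summed level of 5 hepatocyte markers was 26018 to 49831 CPM in livers, 16031 to 32324 in Ctnnb1 tumors, and 63632 to 95436 in other tumors. T-HCC663 thus lay below, and T-HCC662 within, the range of the livers, and both lay below the other tumors. The sum was carried by Alb, with a mean of 21090 CPM in livers and 62401 in other tumors, the only one of the 5 that was called higher there. Apoa1 had 9791 and 13954 CPM, Serpina1a 3120 and 4279, Ttr 5304 and 3450, and Hnf4a 693 and 667. Serpina1a was called lower in Ctnnb1 tumors than in livers (log2 fold change -1.52, SE 0.39, adjusted p = 0.034). For 6 Kupffer cell markers the ranges were 94.9 to 870 CPM in livers, 60.7 to 424 in Ctnnb1 tumors, and 85.3 to 528 in other tumors. Endothelial markers (6) summed to 53.1 to 165, 50.8 to 95.8, and 134 to 256 CPM, stellate and fibroblast markers (6) to 41.4 to 215, 19.6 to 59.3, and 119 to 308 CPM, and cholangiocyte markers (6) to 51.1 to 134, 17.8 to 35.8, and 60.8 to 1065 CPM. The highest of these sums, that of T-HCA992, was mostly Spp1 (1037 CPM). T cell markers (5) stayed at or under 25.6 CPM and B cell markers (4) at or under 40.8 CPM in all libraries. No marker of these lists was at 0 in every library.

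Genes whose pattern was most like that of the members were sought among all expressed non-members by Pearson's r of log2(CPM + 1) over the 12 libraries, as a description, since these libraries share mice and tumor class. For the mean of the members these were Gls2 (r = 0.97), Ido2 (0.97), Arg1 (0.97), Serpina1d (0.96), and Cps1 (0.96). Arg1, the arginase, was also closest to Hal (0.98), and Gls2, the liver glutaminase, to Uroc1 (0.97) and Sds (0.97). Gldc was closest to Sfxn1 (0.96), Sdsl to Mn1 (0.97), Amdhd1 to Zfp39 (0.94), Ftcd to Zfp955a (0.95), Amt to B430010I23Rik (0.93), and Tdo2 to Gm4788 (0.95). Arg1 had 25.4 and 52.6 CPM in T-HCC662 and T-HCC663, 1217 to 2111 CPM in livers, and 756 to 1601 CPM in the other tumors.

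Among themselves, all 36 pairs of members had a positive r over the 12 libraries, from 0.15 to 0.94 (median 0.84). Without the Ctnnb1 tumors, over 10 libraries, 25 of 36 pairs were positive, with a median of 0.26. Over the 6 livers 23 of 36 were positive, with a median of 0.28. The median was thus lower where the pair of Ctnnb1 tumors was left out.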

How the data were processed

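Per the labels and the study's methods, the authors purified poly(A) RNA, sequenced it as paired ends, aligned the reads with Subread (genome mm10, to which mCherry had been added), and used featureCounts 1.6.4 for counting. The deposited values are raw counts of reads per gene symbol in 12 libraries, with no column left unused. The annotation release, the strand setting, and the treatment of multiply aligned reads are not given in the sources used here. The authors' own test corrected for sequencing run, and a fit with that term was not possible here. One liver is titled with an animal number that the study does not list, and by elimination it was taken as that of the mouse with T-HCC662.

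Counts were scaled by TMM and tested with edgeR 4.0.16 (filterByExpr, quasi-likelihood F test, Benjamini-Hochberg adjustment) in R 4.3.3. All 12 libraries entered the models of genotype and of driver class. Fold changes relate to fitted means, CPM to counts per 1000000 of the scaled library size over all genes, and log2 ratios for likeness to log2(CPM + 1). The test was checked on simulated data. Alternatives were DESeq2 1.42.0, RLE scaling, no filter beyond a single count, a block for the mouse, each library left out, and CPM without TMM scaling. The members, lists, comparisons, and motifs were chosen with earlier results of these data known. Named genes are the members, fixed partner enzymes, and the called gene of smallest p in each direction per list.

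Libraries of 1 mouse share an animal. The label numbers pair them, except for the liver set against T-HCC662, which was assigned by elimination. Over 13822 genes, the deviations of tumor and liver from their groups correlated with a median r of 0.32 (0.04 to 0.55) within a mouse and -0.07 between mice. Deviations are taken from group means, so values within and between mice of a group are not independent. In the p21+/TertCi groups both mice give the same r, 0.55, by construction. T-HCC663 had r = 0.05 with its own liver and 0.19 with that of T-HCC941's mouse. T-HCC941 had 0.04 with its own and 0.07 with that of T-HCC663's mouse, so these values do not single out their pairing. Nothing in the labels says that an animal was sampled more than once per tissue. Positions are those of GENCODE (GRCm38), and near-identical copies (90% over 150 bases, minimap2 2.31) were found for none of the 9 members.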

Additional observations from a re-analysis of the deposited data

Results flagged for a closer look

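In 45 groups of member levels tested for a value far from the rest, 3 values from 2 libraries stood out, and chance alone flags about 1 group in 20. Ftcd in T-HCC941 (569 CPM) lay above the 3 remaining tumors without a Ctnnb1 mutation, which were between 386 and 392 CPM. The liver of the mouse with T-HCA992 had the highest Gldc of the 6 livers (239 CPM, the next being 137). The same liver had the highest Amt of the p21+/Tert livers (67.8 CPM, the next being 29.5), so that both glycine cleavage genes were high in it. T-HCA992 itself had 204 CPM of Gldc and 35.1 CPM of Amt.

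Tdo2 was flagged because every p21+/Tert tumor was below the liver of its mouse (4 of 4) and every p21+/TertCi tumor above it (2 of 2). The mean log2 ratios of the genotypes differed by 2.86. How many of all genes separate the 4 tumors from the 2 in this way was not computed. The interaction in edgeR gave 2.77 (SE 0.60, unadjusted p = 0.00070, adjusted p = 1.00, range over the alternatives 0.0063 to 1.00), so that it does not pass the correction except in DESeq2.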

How the results depend on the processing

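Between tumors and livers the count of members called, 0 as reported, was 2 by DESeq2, 1 with the mouse as a replicate block, 1 without the Ctnnb1 tumors, and 0 to 1 with each library left out (1 without T-HCC663). For p21+/Tert mice the count, 1 as reported, was 3 by DESeq2, 2 without the Ctnnb1 tumors, and 1 with each library left out, and for the interaction it was 1 by DESeq2. Of the pathway genes, 12 were called between Ctnnb1 and other tumors, 2 with the mouse as a block, and 4 to 14 with each library left out. The block changed no other count. Relative to own livers, as in the block, Amt had 0.45 in that comparison, and between Egfr or Hras tumors and those with neither driver the sign turned for Amdhd1 (-0.056), Gldc (0.76), Amt (0.47), and Tdo2 (0.35). Without the Ctnnb1 tumors Gldc turned to 0.42 against all livers and to 0.25 in p21+/Tert mice. The cause was not tested. With each library left out, log2 fold changes that crossed 0, none of them called, were those of Gldc between tumors and livers (-0.44 to 0.14), of Hal (-0.33 to 0.98), Uroc1 (-0.53 to 0.11), Amdhd1 (-0.77 to 0.40), and Sdsl (-1.03 to 0.28) in p21+/TertCi mice, and of Amt in the interaction (-0.80 to 0.089) and between Ctnnb1 and other tumors (-1.09 to 0.26). Between the livers of the genotypes they were Hal (-1.08 to 0.23), Amdhd1 (-1.15 to 0.023), Gldc (-0.36 to 0.25), and Sds (-1.32 to 0.10). Between Egfr or Hras tumors and those with neither driver they were Hal (-0.17 to 1.53), Uroc1 (-0.41 to 0.032), Ftcd (-0.043 to 0.50), Gldc (-0.64 to 0.28), Sds (-0.63 to 0.82), Sdsl (-0.43 to 0.64), and Tdo2 (-1.28 to 0.90). Where a library left out leaves 1 sample in a group, that sample is assumed to vary like the others. Depth limits Sdsl in the Ctnnb1 tumors, with 6 and 9 reads, and 2 animals a group limit the comparisons of genotype and of driver class.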

Other observations

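Ido1, which catalyses the same reaction as Tdo2 and was noticed after its values were seen, had 34.4 CPM in T-HCA992 and 0 to 9 reads in each of the 11 other libraries. T-HCA992 is also the tumor with the highest summed cholangiocyte markers (1065 CPM), of which Spp1 alone made up 1037 CPM, while Krt19, Krt7, and Epcam were at 1.00 to 2.58 CPM. The list also holds Sox9 and Cftr. Of its 5 tested markers, 2 were called higher in the other tumors than in livers, Sox9 among them (12.0% of all genes called higher). Tdo2 was at 317 CPM in T-HCA992. Ido2, a paralog of Ido1 expressed in liver, had 10.5 and 7.54 CPM in T-HCC662 and T-HCC663, 31.7 to 61.1 CPM in the other tumors, and 76.7 to 115 CPM in the livers, and it fell by 2.39 between Ctnnb1 and other tumors (SE 0.33, adjusted p = 0.0012).

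Phgdh, the first enzyme of serine synthesis, was also chosen after its values were seen. It had 6.64, 10.3, and 9.85 CPM in T-HCC941, TCi-HCC981, and T-HCA992 and 1.19 in TCi-HCA984, against 0.631 and 1.01 in T-HCC662 and T-HCC663 and 0.0969 to 1.23 in the livers. Its log2 fold change against livers was 3.65 in the other tumors (SE 0.64, adjusted p = 0.0023) and 0.56 in the Ctnnb1 tumors (SE 0.80, adjusted p = 0.73), and the difference of -3.09 between the classes did not pass the test (adjusted p = 0.055).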
